A study of Mus musculus with 8 samples.

Results

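Array signal in mouse 2-cell embryos was read for 50 genes that encode core spliceosome proteins, SR proteins and hnRNP proteins. Splicing itself was not measured. The 50 genes were all those with a symbol of the Sf3a, Sf3b, Prpf, Snrp, Srsf, U2af, Hnrnp or Lsm families. Pseudogenes and Lsm symbols beyond a single digit were left out. The search covered the 14995 genes that had a probeset carrying a single gene symbol. Where a gene had several such probesets, the one with the highest mean was taken. The 50 genes fell into 30 snRNP and associated proteins, 6 SR proteins and 14 hnRNP proteins, and 49 of them passed the filter on low values (a mean log2 value above 2.07), as did 11444 genes in all. The gene below the filter was Sf3b4, a subunit of SF3B, which lay between log2 1.42 and 2.97 on the 8 arrays.

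Each array held the RNA of 1 pool of 2-cell embryos, on average 26 embryos, flushed from the oviducts of C57BL/6 females between 46 and 48 hours after hCG. All females were superovulated with 5 IU each of eCG and hCG, so the groups differ by the sire alone as far as the labels go: C57BL/6 males (3 arrays), males carrying a KDM1A transgene, labelled KDM1A TG (3 arrays), and nonTG males, the non-transgenic littermates (2 arrays). KDM1A is a lysine demethylase that acts on histone H3. The promoter of the transgene, the strain background of its line, the number of males per group and the genotype of the embryos were not given in the sources used here. Nothing in the labels says that replicate pools came from separate males, so p-values measure the spread between pools, which may be partly technical. In pooled embryos, fewer cells of a type and less RNA per cell cannot be told apart.

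Introns are removed by the spliceosome, which assembles on each intron from snRNPs, particles of a small nuclear RNA with a ring of Sm or LSm proteins and particle-specific subunits. U1 marks the start of the intron, U2AF and the U2 snRNP with its SF3A and SF3B subcomplexes recognise its end and branch point, and the tri-snRNP, which holds some of the PRPF proteins, builds the catalytic centre, while other PRPF proteins act with U1 or in the second step of splicing. SR proteins mostly promote the use of exons they bind, hnRNP proteins bind nascent RNA and often repress splice sites, and the early embryo passes from stored maternal transcripts to transcripts of its own at the 2-cell stage.

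Promoter sequence is shown first for the SF3A and SF3B genes, because 4 of the 5 with a promoter window shared the ETS motif there, the highest share of any role group for that motif. Windows were the 250 bases before the annotated start in RefSeq, build GRCm38.p6, and 40 of the 50 genes had one (22 snRNP, 6 SR, 12 hnRNP). They lay at chr11:4160104-4160353 (plus strand), chr4:124714611-124714860 (plus strand), chr19:5295458-5295707 (minus strand), chr8:110846804-110847053 (minus strand) and chr1:55027479-55027728 (minus strand). All are upstream of the first exon, printed 5′ to 3′ along the gene's strand, with the ETS motif CCGGAAG or its reverse complement in capitals. Sf3b1 is the window without a match.
Sf3a1: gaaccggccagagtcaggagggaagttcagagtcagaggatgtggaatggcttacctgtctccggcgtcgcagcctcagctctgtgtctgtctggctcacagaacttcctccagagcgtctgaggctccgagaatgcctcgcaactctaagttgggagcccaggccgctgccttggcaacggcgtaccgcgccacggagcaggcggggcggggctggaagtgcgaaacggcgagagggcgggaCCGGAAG
Sf3a3: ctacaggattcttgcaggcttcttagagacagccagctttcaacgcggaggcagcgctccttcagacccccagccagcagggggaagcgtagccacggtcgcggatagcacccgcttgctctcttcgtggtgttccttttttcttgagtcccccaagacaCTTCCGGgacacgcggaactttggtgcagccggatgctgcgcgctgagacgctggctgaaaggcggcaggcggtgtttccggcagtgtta
Sf3b2: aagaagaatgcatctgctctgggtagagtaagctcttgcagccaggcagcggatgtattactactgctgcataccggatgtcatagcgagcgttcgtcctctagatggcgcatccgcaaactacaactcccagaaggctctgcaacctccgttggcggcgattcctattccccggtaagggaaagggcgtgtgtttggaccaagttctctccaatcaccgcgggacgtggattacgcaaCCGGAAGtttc
Sf3b3: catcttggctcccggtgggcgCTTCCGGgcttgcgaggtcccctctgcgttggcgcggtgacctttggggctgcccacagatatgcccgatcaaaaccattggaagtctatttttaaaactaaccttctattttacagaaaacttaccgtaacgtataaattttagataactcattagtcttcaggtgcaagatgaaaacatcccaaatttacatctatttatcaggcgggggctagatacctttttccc
Sf3b1: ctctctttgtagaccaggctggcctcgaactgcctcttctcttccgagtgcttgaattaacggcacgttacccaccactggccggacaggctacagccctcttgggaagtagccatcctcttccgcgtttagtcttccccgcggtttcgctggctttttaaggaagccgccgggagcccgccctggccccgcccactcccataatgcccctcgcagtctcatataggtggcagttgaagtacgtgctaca

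Prpf8, which had the smallest p-value of the splicing genes in KDM1A TG against C57BL/6, Lsm3, which had it in nonTG against C57BL/6, and Srsf6, which had the smallest p-value among SR proteins in the nonTG comparison, are shown for contrast. Their windows lay at chr11:75486527-75486776 (plus strand), chr6:91515785-91516034 (plus strand) and chr2:162931258-162931507 (plus strand). Capitals mark the SP1 motif GGGCGG and the NFY motif CCAAT on either strand. No window held both, and in Lsm3 adjoining SP1 matches share a base.
Prpf8: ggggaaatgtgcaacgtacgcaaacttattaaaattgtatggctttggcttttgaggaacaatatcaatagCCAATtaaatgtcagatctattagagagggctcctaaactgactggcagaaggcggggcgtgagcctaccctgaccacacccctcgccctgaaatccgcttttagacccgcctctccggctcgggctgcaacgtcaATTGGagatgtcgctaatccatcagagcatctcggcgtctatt
Lsm3: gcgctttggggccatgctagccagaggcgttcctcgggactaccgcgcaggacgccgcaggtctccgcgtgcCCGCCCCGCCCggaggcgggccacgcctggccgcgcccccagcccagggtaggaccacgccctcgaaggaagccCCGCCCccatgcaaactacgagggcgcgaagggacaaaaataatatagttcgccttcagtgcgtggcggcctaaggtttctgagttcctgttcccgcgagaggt
Srsf6: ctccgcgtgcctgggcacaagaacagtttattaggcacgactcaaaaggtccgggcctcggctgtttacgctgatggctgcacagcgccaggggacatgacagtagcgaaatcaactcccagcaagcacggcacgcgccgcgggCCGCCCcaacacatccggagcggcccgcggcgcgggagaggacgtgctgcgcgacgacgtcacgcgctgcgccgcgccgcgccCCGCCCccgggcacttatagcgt

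Prpf8 held the NFY motif and no SP1 motif, whereas Lsm3 and Srsf6 held the SP1 motif and no NFY motif. Prpf6, with the largest log2 change of the splicing genes in KDM1A TG against C57BL/6, held SP1 and no NFY. Whether motifs go with the log2 changes was not tested. On either strand, SP1 was present in 26 of the 40 windows (65%) against 32.9% of the 27025 gene promoters in the table. Those promoters were not limited by gene type or to genes above the array filter, so the sets compared are unlike. NFY was present in 20 (50%) against 34.5%, and ETS in 8 (20%) against 7.1%. By class, SP1 was found in 12 of 22 snRNP, 5 of 6 SR and 9 of 12 hnRNP windows. NFY was found in 9, 2 and 9 of these, and ETS in 7 snRNP windows, 1 hnRNP window and no SR window, and differences between the classes were not tested. The TATA letters TATAAA were in 4 windows (10%) against 13% of all, and neither the palindromic NRF1 core motif nor the YY1 motif AAGATGGCG was in any of the 40, against 0.8% and 0.6% of all promoters. Median GC content was 59.2% against 52%, and the median number of CpG was 21.5 against 6. A match describes letters in the window and is not evidence of binding.

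Probeset values on the arrays are log2. The arrays differ in spread, so comparisons between them depend on scaling, and values of different genes cannot be compared as amounts of RNA. Mean values of the 49 genes tested ran from 2.13 for Srsf12 to the 99.1 percentile of all genes for Hnrnpab, and Sf3b4, which was not tested, had 1.96. Correlations between arrays over all genes tested ran from 0.889 to 0.967. The KDM1A TG replicates 1 and 3 had wider distributions than the others, with interquartile ranges of 2.38 and 2.60 against 1.87 to 2.09. The column medians ran from 2.73 to 2.86.

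**Figure D1:**
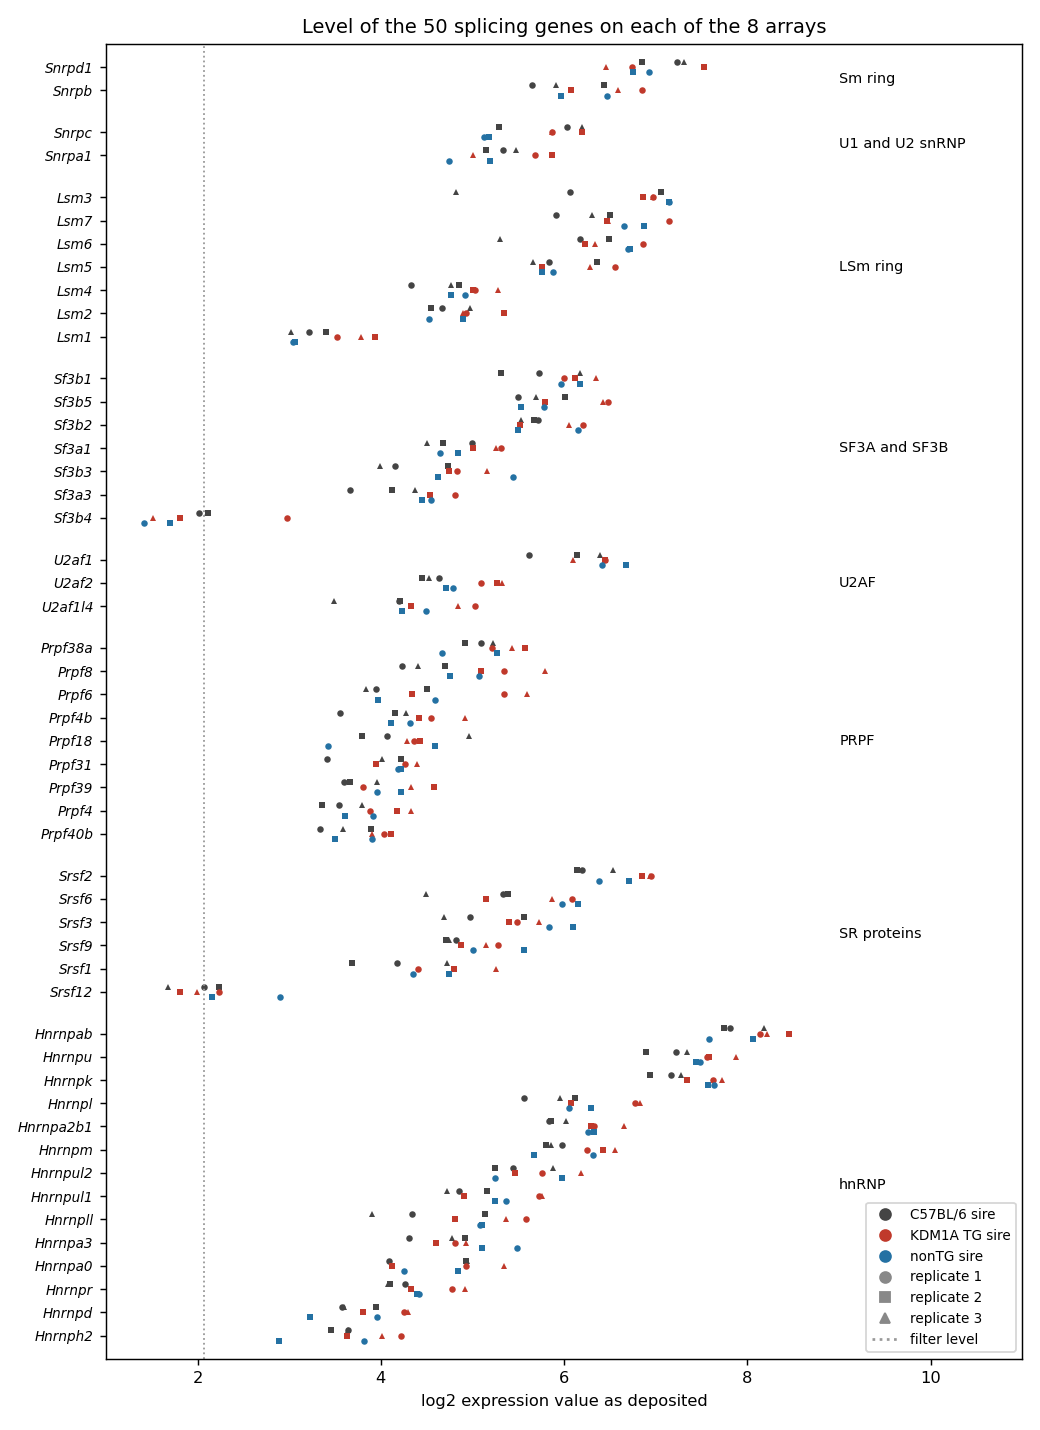
Log2 value of each of the 50 splicing genes (rows, grouped by role) on each of the 8 arrays; colours are sire groups, marker shapes are replicates, and the dotted line is the filter at log2 2.07. Prpf8 lies higher on all 3 KDM1A TG arrays than on any C57BL/6 array, while Lsm3 has 1 C57BL/6 array far to the left, at 4.82.

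Comparing KDM1A TG with C57BL/6 embryos asks whether splicing genes differed between these sires, which differ by the transgene and by line. Transgene and line cannot be told apart in this comparison. None of the 49 splicing genes tested passed an adjusted p of 0.05 (limma with Benjamini-Hochberg over 11444 genes, of which 0.725% passed). At an unadjusted p of 0.05, 7 were higher and none lower (background 12.1% higher, 2.1% lower). Their log2 changes were above 0 in 48 of 49 (64.9% of all genes), with a median of 0.46 against 0.18 for all genes. All 3 arrays of each group lay apart, KDM1A TG above C57BL/6, for 18 of 49 (background 14.5%), and in the other direction for none (5.34%). The median relative to all genes was 0.28 for the snRNP class, 0.36 for SR proteins and 0.30 for hnRNP proteins. With arrays weighted by their fit, 9 of the 49 passed, as did 14.8% of all genes. After quantile normalization 40 of 49 and after cyclic loess 38 of 49 were above 0.

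The same count for nonTG against C57BL/6, which holds the littermates without the transgene, was again 0 of 49 (0.131% of all genes passed). At an unadjusted p of 0.05, 4 were higher and none lower (4.61% and 3.62% of all genes). Log2 changes were above 0 in 36 of 49 (53.2% of all genes), with a median of 0.25 against 0.04. Arrays lay apart with nonTG higher for 17 (15.4% of all genes) and lower for 1 (9.41%). The SR class stood at 0.49 above the median of all genes, the hnRNP class at 0.24 and the snRNP class at 0.16. Both comparisons use the same 3 C57BL/6 arrays, so their values are not independent of each other.

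The direct comparison of KDM1A TG with nonTG called 0 of 49 (0.0437% of all genes), with 2 higher and none lower at an unadjusted p of 0.05 (4.97% and 1.43%). Log2 changes were above 0 in 37 of 49 (65.4% of all genes), and 27 and 28 after quantile and cyclic loess normalization. Arrays did not overlap for 12 with KDM1A TG higher (16% of all genes) and 3 lower (6.38%). Relative to all genes the class medians were 0.19 for snRNP, 0.07 for hnRNP and -0.43 for SR proteins. The hnRNP median turned to -0.04 after quantile normalization and -0.03 after cyclic loess, while the SR median kept its sign under every alternative run.

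Both sire groups of the transgenic line were also averaged and set against C57BL/6. No splicing gene passed (0.804% of all genes did), and 7 were higher and none lower at an unadjusted p of 0.05 (9.37% and 2.94% of all genes). The 5 arrays lay above all 3 C57BL/6 arrays for 9 genes (6.15% of all genes) and below for none (2.02%). These were Prpf8, Sf3a3, U2af2, U2af1l4, Srsf9, Hnrnpk, Hnrnpr, Hnrnpu and Hnrnpa2b1, and log2 changes were above 0 in 45 of 49 (59.5% of all genes). Lsm3 had the smallest adjusted p of the 49, at 0.0858, with a log2 change of 1.06 (SE 0.32), and 1.64% of all genes were under 0.10. With array weights 2 of 49 passed (5.65% of all genes), and without C57BL/6 replicate 2, 1 passed, Lsm3 (2.12%).

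**Figure D2:**
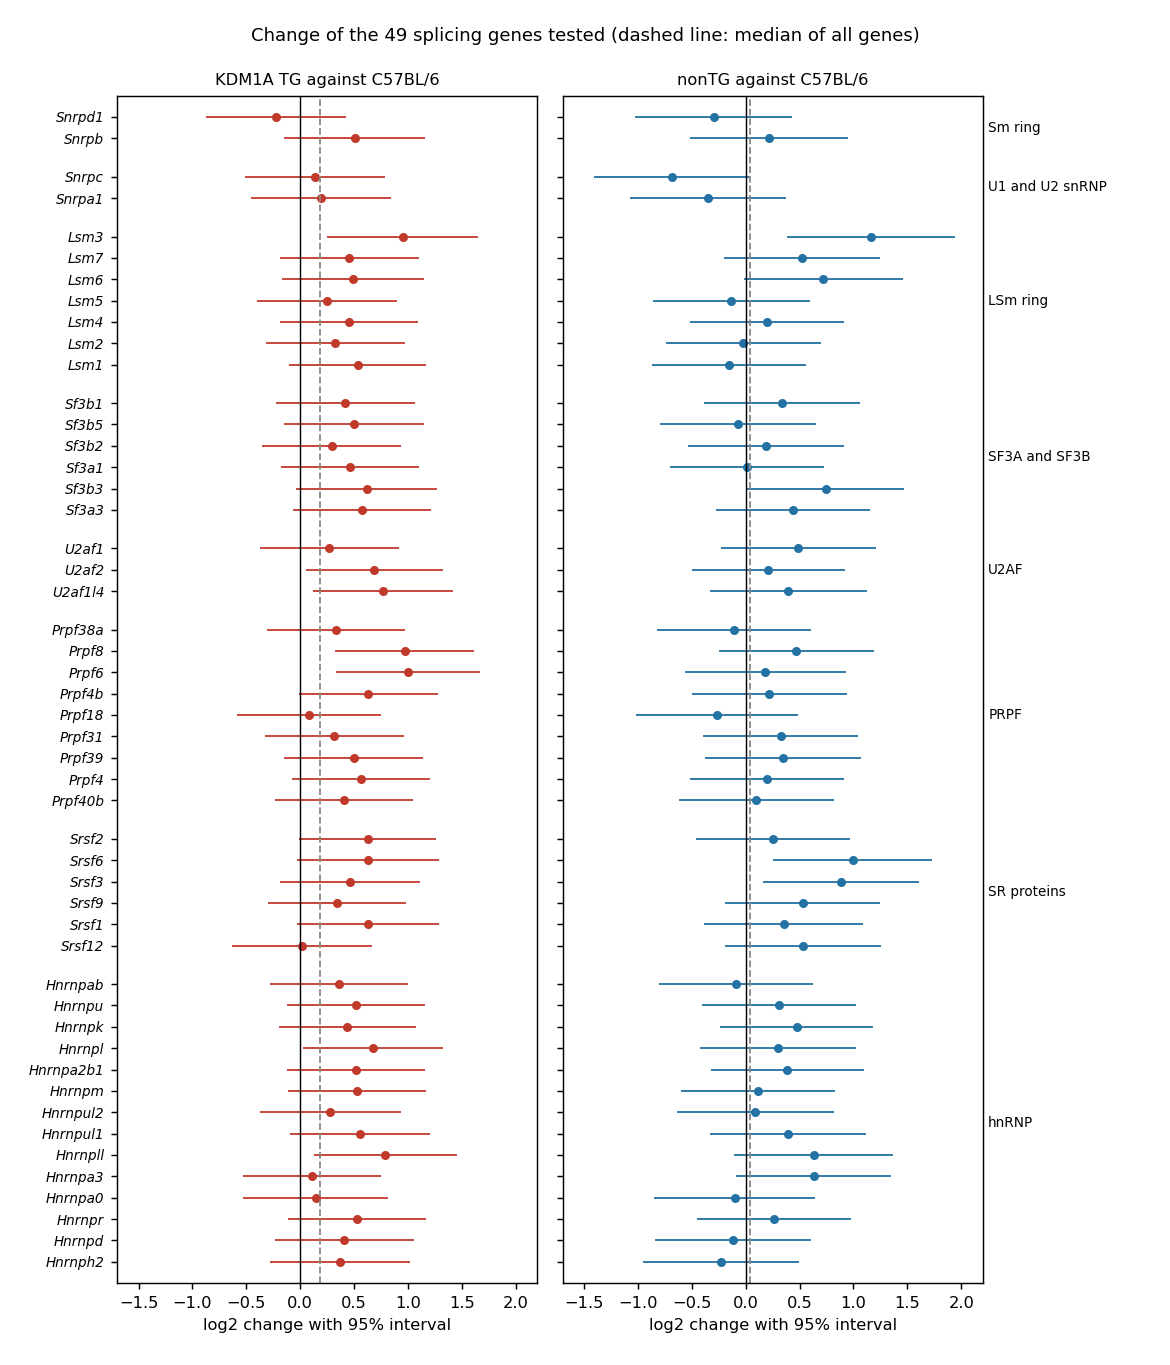
Log2 change of each of the 49 splicing genes tested, with its 95% interval, in KDM1A TG (left) and nonTG (right) against the same 3 C57BL/6 arrays; the dashed line is the median of all 11444 genes. All points but Snrpd1 lie above 0 on the left, while on the right the 2 proteins of the U1 and U2 snRNP row group lie at -0.69 and -0.35.

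The position of each class on each array was taken as the median deviation of its genes from their own mean, relative to all genes. For the snRNP class it was -0.18, -0.06 and -0.12 in the C57BL/6 replicates, 0.15, 0.18 and 0.12 in the KDM1A TG replicates, and 0.06 and -0.07 in the nonTG replicates. KDM1A TG therefore lay above both other groups without overlap, and nonTG replicate 2 fell inside the C57BL/6 range. The group means were -0.12 ± 0.06 (SD, n = 3), 0.15 ± 0.03 (n = 3) and -0.01 ± 0.09 (n = 2).

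SR proteins ordered the groups differently. Their position was -0.19, -0.17 and -0.29 in C57BL/6, 0.08, -0.08 and 0.09 in KDM1A TG, and 0.18 and 0.43 in nonTG. The 3 groups did not overlap, with nonTG highest, at 0.31 ± 0.18 (SD, n = 2) against 0.03 ± 0.10 (n = 3) in KDM1A TG and -0.22 ± 0.07 (n = 3) in C57BL/6. This class holds 6 genes, and its nonTG arrays were further apart than those of any other class.

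The hnRNP class was at -0.15, -0.17 and -0.08 in C57BL/6, 0.13, -0.05 and 0.27 in KDM1A TG, and 0.10 and 0.11 in nonTG. Both groups of the transgenic line lay above C57BL/6 and overlapped each other, at 0.11 ± 0.16 (SD, n = 3) and 0.11 ± 0.01 (n = 2).

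Part of this order depended on how the arrays were scaled. After quantile normalization the snRNP position was -0.14, 0.00 and -0.02 in C57BL/6 and 0.06, 0.16 and -0.01 in KDM1A TG, so these groups overlapped, with KDM1A TG replicate 3 below C57BL/6 replicate 2. KDM1A TG also overlapped C57BL/6 for SR proteins (-0.10 in replicate 2 against -0.08 in C57BL/6 replicate 2) and for hnRNP proteins (-0.06 in replicate 2 against 0.04 in C57BL/6 replicate 3). The nonTG arrays stayed above all C57BL/6 arrays for SR proteins, at 0.24 and 0.44, and for hnRNP proteins, at 0.15 and 0.09. After cyclic loess this held for SR proteins, and hnRNP proteins overlapped.

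**Figure D3:**
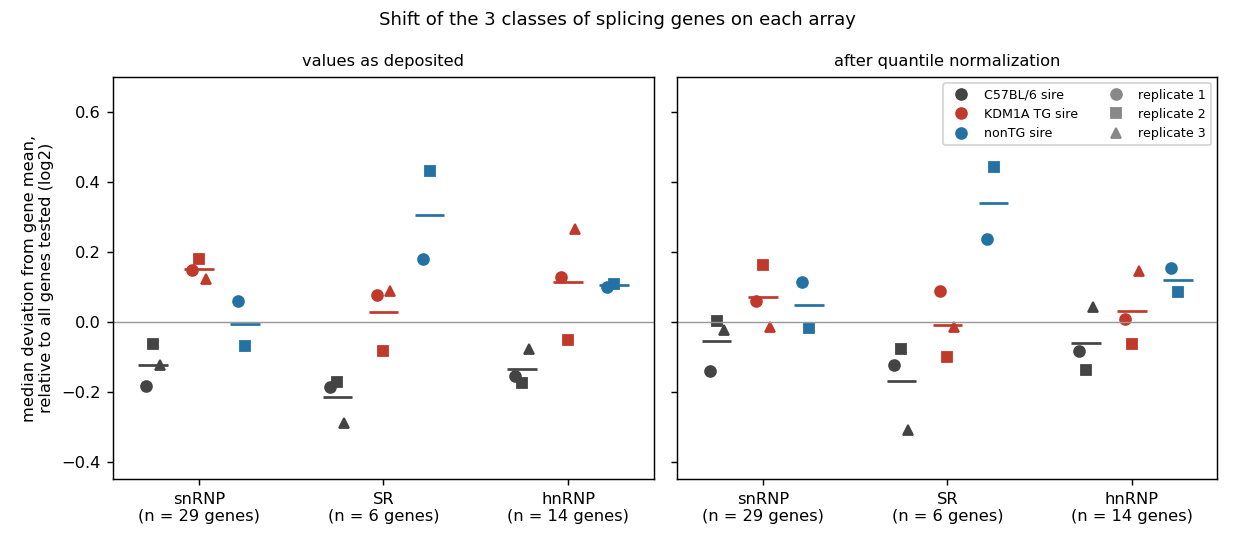
Median deviation of each class from its genes' means on each array, relative to all genes tested (log2), as deposited (left) and after quantile normalization (right); bars are group means. On the left KDM1A TG snRNP values of 0.12 to 0.18 lie above all others, and on the right they overlap C57BL/6, while nonTG stays highest for SR proteins on both sides.

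Change also varied with probeset signal over all genes, and the splicing genes are mostly in the brighter part. In KDM1A TG against C57BL/6 the median of the other genes was -0.11 below log2 3, 0.22 between 3 and 4, 0.39 between 4 and 5, and 0.41 to 0.44 above 5. Against genes of like signal, 33 of the 49 splicing genes were above the median of their range, compared with 43 of 49 above the median of all genes. In nonTG against C57BL/6 the other genes went from -0.04 below log2 3 to 0.35 at 7 and above, and 30 of 49 splicing genes were above their range's median. In KDM1A TG against nonTG the number was 24 of 49. The counts after quantile normalization were 32, 31 and 24.

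The 11 splicing genes between log2 5 and 6 had a median of 0.35 in KDM1A TG against C57BL/6, where other genes of that range had 0.44, and 4 of them lay above it. The 18 between 4 and 5, where Prpf8, Prpf6 and U2af1l4 fall, had 0.55 against 0.39, and 13 lay above it.

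**Figure D4:**
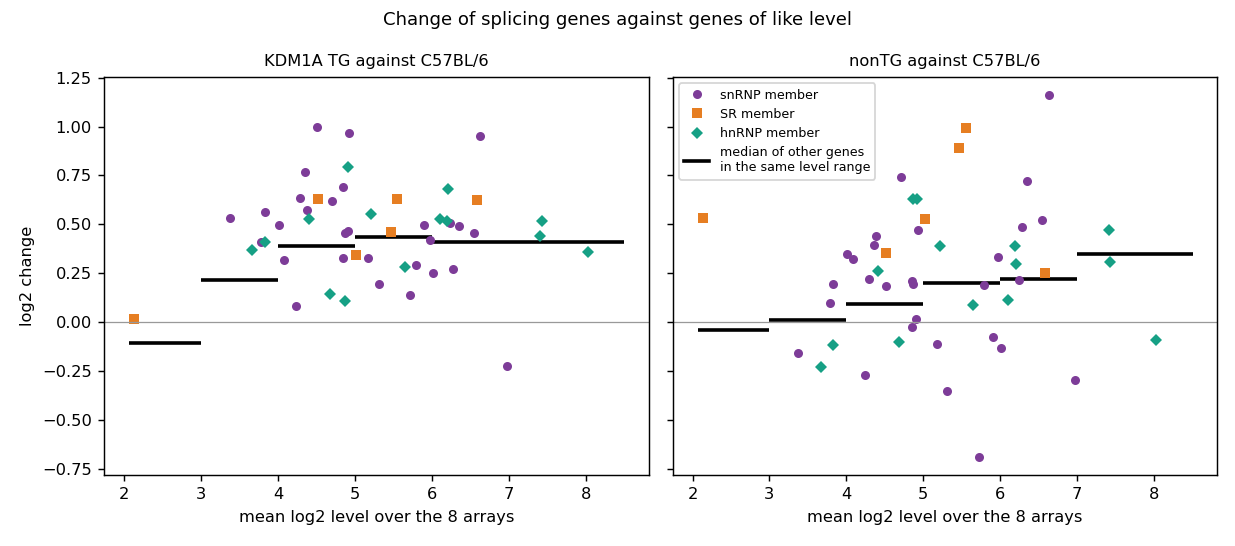
Log2 change against mean log2 level for the 49 splicing genes (points, by class), with the median of the other genes in each level range (black bars), for KDM1A TG (left) and nonTG (right) against C57BL/6. On the left the bars climb from -0.11 below log2 3 to 0.44 between 5 and 6, and the splicing genes are scattered around the bars with 33 of 49 above.

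Sm ring and U1 and U2 proteins come first by role, with 2 genes measured in each. Snrpb, the SmB protein of the ring, was at 5.65, 6.43 and 5.91 in C57BL/6, 6.85, 6.07 and 6.59 in KDM1A TG, and 6.47 and 5.96 in nonTG. The groups overlapped, and the log2 changes were 0.51 (SE 0.33, limma adjusted p = 0.467) and 0.22. Snrpd1, the SmD1 protein, was the only gene tested with a log2 change below 0 in KDM1A TG, at 7.24, 6.85 and 7.31 in C57BL/6, 6.74, 7.52 and 6.46 in KDM1A TG, and 6.92 and 6.75 in nonTG. Its log2 change was -0.22 (SE 0.33, limma adjusted p = 0.746), and its second probeset gave 0.37, so the probesets disagree in sign.

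Snrpc, the U1 subunit that steadies the pairing of U1 RNA with the splice site, was at 6.03, 5.29 and 6.19 in C57BL/6, 5.87, 6.19 and 5.87 in KDM1A TG, and 5.12 and 5.18 in nonTG. Both nonTG arrays lay below all 6 others. The log2 change was -0.69 (SE 0.36, limma adjusted p = 0.631) in nonTG against C57BL/6 and 0.83 (SE 0.36, limma adjusted p = 0.770) in KDM1A TG against nonTG, the smallest p of the 49 in that comparison. Snrpa1, a structural protein of the U2 snRNP, was at 5.34, 5.15 and 5.48 in C57BL/6, 5.68, 5.86 and 5.01 in KDM1A TG, and 4.75 and 5.19 in nonTG. Its groups overlapped, with log2 changes of 0.20 and -0.35, and the first turned to -0.09 after quantile normalization and -0.15 after cyclic loess.

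LSm proteins form the ring on U6 RNA and, with Lsm1 in place of another subunit, a ring that acts in mRNA decay. Lsm3, shared by both rings, was at 6.07, 7.06 and 4.82 in C57BL/6, 6.97, 6.86 and 6.96 in KDM1A TG, and 7.14 and 7.14 in nonTG. The C57BL/6 pools were far apart while the 5 others lay close together, and C57BL/6 replicate 2 was above the KDM1A TG arrays. The log2 change was 0.95 (SE 0.35, limma adjusted p = 0.201) in KDM1A TG and 1.16 (2.23-fold, SE 0.39, limma adjusted p = 0.290) in nonTG.

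Lsm3 turned on single C57BL/6 arrays. Without C57BL/6 replicate 2, the log2 changes were 1.49 and 1.70 and both passed, with limma adjusted p = 0.0104 and 0.0168 (2.22% and 0.699% of all genes passed there). Without C57BL/6 replicate 3 they were 0.37 and 0.58, with limma adjusted p = 0.662 and 0.888. The other LSm genes were nearer to each other, from 0.25 (Lsm5) to 0.53 (Lsm1) in KDM1A TG against C57BL/6. In nonTG, Lsm6 had 0.72, Lsm7 0.52 and Lsm1 -0.16.

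SF3A and SF3B hold the U2 snRNP at the branch point. Sf3b3, a scaffold of SF3B, was at 4.15, 4.73 and 3.99 in C57BL/6, 4.83, 4.74 and 5.15 in KDM1A TG, and 5.45 and 4.62 in nonTG. KDM1A TG lay just above C57BL/6 and nonTG overlapped it, with log2 changes of 0.62 (SE 0.33, limma adjusted p = 0.377) and 0.74 (SE 0.37, limma adjusted p = 0.597). The first was 0.25 as the mean of both probesets of the gene, and the second was 0.33 without nonTG replicate 1 and 1.16 without nonTG replicate 2. Sf3b1, which clamps the branch point region, was at 5.73, 5.31 and 6.17 in C57BL/6, 6.00, 6.11 and 6.34 in KDM1A TG, and 5.97 and 6.17 in nonTG, with overlap in both comparisons. Among the SF3 genes printed above, the 4 with the ETS letters had log2 changes of 0.29 to 0.62 in KDM1A TG and Sf3b1, without them, had 0.42.

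U2AF reads the end of the intron. U2af2, the subunit that binds the polypyrimidine tract, was at 4.64, 4.45 and 4.52 in C57BL/6, 5.09, 5.27 and 5.32 in KDM1A TG, and 4.78 and 4.71 in nonTG, so the 3 groups did not overlap. U2af1l4, a paralogue of the small subunit, was at 4.19, 4.21 and 3.49 in C57BL/6, 5.03, 4.33 and 4.84 in KDM1A TG, and 4.50 and 4.23 in nonTG. Both groups of the transgenic line were above C57BL/6, the nonTG group by a narrow margin. The log2 changes in KDM1A TG were 0.69 (SE 0.32, limma adjusted p = 0.318) for U2af2 and 0.77 (SE 0.33, limma adjusted p = 0.274) for U2af1l4. The second, dimmer probeset of U2af1l4 gave 0.415 in KDM1A TG and 0.14 in nonTG.

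U2af1, the small subunit itself, was at 5.62, 6.15 and 6.40 in C57BL/6, 6.44, 6.44 and 6.09 in KDM1A TG, and 6.41 and 6.67 in nonTG. Only the nonTG arrays lay above all C57BL/6 arrays, narrowly, with a log2 change of 0.49 (SE 0.36, limma adjusted p = 0.724).

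PRPF proteins had the 2 largest log2 changes of the 49 in KDM1A TG. Prpf8, the scaffold around the catalytic RNA core, was at 4.23, 4.70 and 4.40 in C57BL/6, 5.35, 5.10 and 5.79 in KDM1A TG, and 5.08 and 4.75 in nonTG. The groups lay apart in the order C57BL/6, nonTG, KDM1A TG. The log2 change was 0.97 (1.96-fold, SE 0.32, 95% interval 0.32 to 1.61, limma adjusted p = 0.147) in KDM1A TG and 0.47 (SE 0.36, limma adjusted p = 0.728) in nonTG, and 0.50 between KDM1A TG and nonTG (limma adjusted p = 0.847).

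Prpf6, which bridges the U5 and U4/U6 particles, was at 3.95, 4.50 and 3.84 in C57BL/6, 5.34, 4.34 and 5.60 in KDM1A TG, and 4.59 and 3.97 in nonTG. Replicate 2 of KDM1A TG was inside the C57BL/6 range. The log2 change was 0.998 (2.00-fold, SE 0.34, limma adjusted p = 0.148). Without KDM1A TG replicate 2 it was 1.38 and passed (limma adjusted p = 0.0366, with 1.99% of all genes passing), and without both other KDM1A TG arrays it was 0.24. Prpf38a, a protein of the pre-catalytic complex, was at 5.09, 4.92 and 5.22 in C57BL/6, 5.21, 5.58 and 5.44 in KDM1A TG, and 4.67 and 5.27 in nonTG, all groups overlapping. The remaining PRPF genes ran from 0.08 (Prpf18) to 0.63 (Prpf4b, a kinase) in KDM1A TG and from -0.27 (Prpf18) to 0.35 (Prpf39) in nonTG.

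SR proteins differed from gene to gene, and none of the 6 passed in any comparison. Srsf9 had both groups of the transgenic line above all C57BL/6 arrays, while Srsf1 and Srsf12 overlapped in every comparison. Srsf2 was at 6.19, 6.14 and 6.54 in C57BL/6, 6.95, 6.85 and 6.94 in KDM1A TG, and 6.38 and 6.71 in nonTG, with KDM1A TG above all 5 other arrays and a log2 change of 0.63 (SE 0.32, limma adjusted p = 0.362). Srsf6 was at 5.33, 5.39 and 4.49 in C57BL/6, 6.09, 5.15 and 5.86 in KDM1A TG, and 5.97 and 6.15 in nonTG, with nonTG alone above C57BL/6. Its log2 change in nonTG was 0.99 (1.99-fold, SE 0.37, 95% interval 0.25 to 1.73, limma adjusted p = 0.379).

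Srsf3, the smallest SR protein, followed Srsf6, at 4.97, 5.56 and 4.69 in C57BL/6, 5.49, 5.40 and 5.72 in KDM1A TG, and 5.83 and 6.09 in nonTG. The nonTG arrays were above all 6 others, with log2 changes of 0.89 against C57BL/6 (SE 0.36, limma adjusted p = 0.453) and -0.43 in the direct comparison of KDM1A TG with nonTG (limma adjusted p = 0.847). Srsf12 was at the low end of signal, with log2 changes of 0.02 in KDM1A TG and 0.53 in nonTG. Srsf1, the founding member of the family, had 0.63 in KDM1A TG by its brighter probeset and 0.20 by its second.

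hnRNP proteins had log2 changes above 0 for all 14 in KDM1A TG (64.9% of all genes) and 10 of 14 in nonTG (53.2%). Above the median of all genes were 12 and 10 of them. Hnrnpll, known as a regulator of Ptprc splicing in lymphocytes, was at 4.34, 5.14 and 3.91 in C57BL/6, 5.58, 4.81 and 5.37 in KDM1A TG, and 5.08 and 5.11 in nonTG. It overlapped in both comparisons, with log2 changes of 0.79 (SE 0.33, limma adjusted p = 0.267) and 0.63. Hnrnpa3 was at 4.30, 4.92 and 4.78 in C57BL/6, 4.81, 4.60 and 4.93 in KDM1A TG, and 5.49 and 5.11 in nonTG, so nonTG was above all 6 others, with a log2 change of 0.63 (SE 0.36, limma adjusted p = 0.666) against C57BL/6 and -0.52 in the direct comparison.

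Hnrnpab was at 7.81, 7.74 and 8.18 in C57BL/6, 8.14, 8.45 and 8.22 in KDM1A TG, and 7.58 and 8.06 in nonTG, with KDM1A TG overlapping C57BL/6 and above both nonTG arrays. Hnrnpk, which binds C-rich RNA, and Hnrnpu, a nuclear matrix protein, had both groups of the transgenic line above all C57BL/6 arrays. Their log2 changes were 0.44 and 0.47 (Hnrnpk) and 0.52 and 0.31 (Hnrnpu) in KDM1A TG and nonTG, with limma adjusted p between 0.451 and 0.818. Hnrnpr and Hnrnpa2b1 did the same, at 0.53 and 0.26, and 0.52 and 0.39.

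Cyclic loess lowered several of these log2 changes by more than 1.5 times. In KDM1A TG against C57BL/6 it gave 0.64 for Prpf8, 0.59 for Lsm3, 0.49 for U2af1l4, 0.46 for Hnrnpll, 0.30 for Sf3b3, 0.26 for Srsf2 and 0.14 for Snrpb, and in nonTG against C57BL/6 0.29 for U2af1.

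Other splicing genes outside these families were read from 9 lists by role, given as medians relative to all genes. In KDM1A TG against C57BL/6 these were 0.26 for U1-associated proteins (8 genes), 0.23 for tri-snRNP and B complex proteins (12), 0.23 for exon junction and export proteins (9), 0.22 for U2 and A complex proteins (10), 0.20 for other RNA-binding regulators (36) and 0.18 for the Prp19 and catalytic complexes (22). They were 0.11 for SMN assembly proteins (14), 0.06 for SR kinases and related proteins (16) and 0.00 for the minor spliceosome (7), which removes the rare introns of the U12 type. Of the 134 genes tested in these lists, none passed in the KDM1A TG, nonTG or direct comparison (0.725%, 0.131% and 0.0437% of all genes did).

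In nonTG against C57BL/6 the medians were lower, at 0.11 for the RNA-binding regulators, 0.08 for U2 and A complex proteins, 0.06 for exon junction and export proteins, 0.05 for U1-associated proteins, -0.04 for the Prp19 and catalytic complexes, -0.07 for tri-snRNP proteins, -0.10 each for SMN proteins and SR kinases, and -0.27 for the minor spliceosome. The U1-associated helicases Ddx5 and Ddx17 differed: Ddx17 had 0.99 in KDM1A TG and 0.88 in nonTG, and Ddx5 had 1.03 and 0.09 (limma adjusted p from 0.141 to 0.949). In the average of both groups of the line, Alyref2, a paralogue of the export adaptor Alyref, fell by 1.24 on the log2 scale (SE 0.30, limma adjusted p = 0.0190), and it was the one gene of the 134 to pass there (0.746%, with 0.804% of all genes). It did not pass without C57BL/6 replicate 1 (0.152), KDM1A TG replicate 1 (0.0961), KDM1A TG replicate 3 (0.0523) or nonTG replicate 2 (0.203), nor after quantile normalization (0.0627) or cyclic loess (0.0763), each given as limma adjusted p.

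Markers of other cells also varied between these arrays. The mean of 19 oviduct epithelium markers was 5.72, 6.04 and 5.17 in C57BL/6, 6.31, 5.75 and 6.45 in KDM1A TG, and 6.32 and 5.94 in nonTG, and the mean of 18 stroma and muscle markers ranged from 3.76 to 4.61, 4.52 to 6.16, and 4.01 to 5.47. In KDM1A TG against C57BL/6, the stroma and muscle markers had a median 0.81 above that of all genes, more than any class of splicing genes, with 12 of 18 higher at an unadjusted p of 0.05 and 1 passing, Acta2 (log2 change 1.76, limma adjusted p = 0.0155). The oviduct markers had a median 0.35 above, with 8 of 19 higher at that p and none passing. In nonTG these medians were 0.47 and 0.45, with 4 and 4 higher at an unadjusted p of 0.05. The neutrophil gene S100a9 was lower in KDM1A TG (log2 change -1.92, limma adjusted p = 0.0111), though its arrays overlapped. This was not particular to KDM1A TG, as its log2 change between KDM1A TG and nonTG was -0.22. In nonTG against C57BL/6 it did not pass (limma adjusted p = 0.134). In the average of both groups it did (limma adjusted p = 0.00627), and 2 of the 6 blood markers passed there, both lower (0.804% of all genes passed). The means of the 22 oocyte and 2-cell markers tested ran from 4.37 to 5.07 in C57BL/6, 4.52 to 5.13 in KDM1A TG and 3.94 to 4.54 in nonTG. Their medians relative to all genes were -0.34 in KDM1A TG and -0.66 in nonTG against C57BL/6, and 0.38 between KDM1A TG and nonTG. At an unadjusted p of 0.05, 1 was higher and 1 lower in KDM1A TG against C57BL/6 (12.1% and 2.1% of all genes). In nonTG against C57BL/6, 0 were higher and 6 lower (4.61% and 3.62% of all genes). Over the 8 arrays, the zona protein gene Zp3 lay between 3.57 and 5.75, the oocyte gene Gdf9 between 2.67 and 3.80 and the 2-cell gene Zscan4d between 3.17 and 4.47. The lowest value of each of these genes was in nonTG replicate 1. Usp17lc was at 5.12, 4.44 and 5.28 in C57BL/6, 4.28, 3.39 and 4.69 in KDM1A TG, and 3.74 and 3.79 in nonTG. Its log2 changes against C57BL/6 were -0.82 in KDM1A TG and -1.18 in nonTG (limma adjusted p = 0.255 and 0.224). Means of 5 cumulus markers were 2.33 to 3.41, and of 6 blood markers 2.56 to 4.48. When the mean of the oviduct markers entered the fit as a covariate, Lsm3 had 0.21 (limma adjusted p = 0.863) and 0.48 (limma adjusted p = 0.866), in KDM1A TG and nonTG against C57BL/6, where it had 0.95 and 1.16 without the covariate. In KDM1A TG against C57BL/6, Prpf6 went from 0.998 to 0.36, Hnrnpll from 0.79 to 0.23 and Prpf8 from 0.97 to 0.68, and in nonTG against C57BL/6, Srsf6 went from 0.99 to 0.52. Over all 49 genes tested, 44 and 36 log2 changes were above 0 with the covariate in KDM1A TG and nonTG against C57BL/6. Their medians were 0.37 and 0.20, against 0.13 and -0.02 for all genes in the same fit. With the covariate, class medians relative to all genes were 0.25 (snRNP), 0.12 (SR) and 0.25 (hnRNP) in KDM1A TG against C57BL/6. Without it they were 0.28, 0.36 and 0.30. In nonTG against C57BL/6 they were 0.18, 0.535 and 0.13 with the covariate and 0.16, 0.49 and 0.24 without it. The part of stroma, muscle, cumulus and blood cells in the values of splicing genes was not tested.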

How the data were processed

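RNA of 8 pools of 2-cell embryos was measured on Affymetrix arrays, 1 per pool. The deposited values are log2 expression per probeset, and per the submitters' processing notes R 3.1.0, oligo, RMA and limma were used, with their roles not given. For background correction, annotation and filters, the authors' steps were not given in the sources used here. No scanner file was read, so no value is called above background. Array columns do not share 1 distribution. They were used as deposited in the main fit, and other scalings were run as alternatives.

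Of 22961 probesets, 15745 carried 1 gene symbol, 1320 several and 5896 none, and names came from the platform annotation. A gene was tested if its mean exceeded log2 2.07, the 30th percentile of probeset means. Of the 50 genes, 7 had several probesets, and 1 symbol was left out as a pseudogene.

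The 3 group means were estimated by limma 3.58.1 (lmFit, eBayes; R 4.3.3) over the 8 arrays, two-sided, with Benjamini-Hochberg adjustment at 0.05, and intervals are 95%. Classes and lists got counts and medians, with no set test. Values on every array were printed, per role, for the genes with the smallest p in each comparison with C57BL/6 and the brightest gene, and a few others by choice after their values were seen. The genes, lists and rules were chosen with earlier results of these data known. Depth has no meaning for arrays, and their number limits the precision. Prpf6 and any other called splicing gene were followed through the alternatives too. Alternatives covered filter, scaling, array weights, probeset choice, threshold, replicate block, oviduct covariate and leaving out arrays. Averaging as 5 arrays against 3 was chosen after seeing the data.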

Additional observations from a re-analysis of the deposited data

How the results depend on the processing

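No count of splicing genes called changed except as follows. With array weights 9 passed in KDM1A TG against C57BL/6 (Hnrnpl, Hnrnpll, Lsm3, Prpf4b, Prpf6, Prpf8, Sf3a3, Snrpb and U2af1l4, where 14.8% of all genes passed) and 2 for the average of both groups of the line (Hnrnpll and Lsm3, 5.65%). At an adjusted p of 0.10, 1 passed for that average (Lsm3, 1.64%). Leaving out each array gave 0 to 1 called in both of these and in nonTG against C57BL/6, and 0 in KDM1A TG against nonTG. The single genes were Lsm3 without C57BL/6 replicate 2 and Prpf6 without KDM1A TG replicate 2. Of the 49 log2 changes in KDM1A TG against C57BL/6, 48 were above 0 as deposited, 40 after quantile normalization, 38 after loess and 49, Snrpd1 included, with the mean of a gene's probesets. Among the few genes followed singly, those with the smallest p of their role, the sign turned for Snrpa1 in KDM1A TG (quantile and loess normalization) and for Snrpd1 in nonTG, at 0.073 with the oviduct covariate.

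Class medians relative to all genes moved more. For KDM1A TG against C57BL/6 the snRNP median was 0.14 with quantile normalization, 0.067 with cyclic loess, 0.40 without the filter and 0.17 with the filter at the median. The SR median was 0.18, 0.16 and 0.48 under the first 3, 0.12 with the oviduct covariate and 0.15 without KDM1A TG replicates 1 and 3. The hnRNP median was 0.14, 0.10, 0.42 and 0.18, and 0.12 without those replicates. For nonTG against C57BL/6, cyclic loess gave 0.088 (snRNP) and 0.052 (hnRNP), and the covariate gave 0.13 (hnRNP). For KDM1A TG against nonTG the snRNP median was 0.055, 0.073, 0.287 and 0.128 under the 4 settings and 0.12 with array weights, the SR median -0.30 with array weights, and the hnRNP median -0.040 with quantile normalization and -0.093 without KDM1A TG replicates 1 and 3. For the average of both groups, snRNP was 0.12 (quantile), 0.10 (loess), 0.17 (filter at the median) and 0.20 (covariate), and hnRNP 0.163, 0.081 and 0.165 (quantile, loess, covariate). The cause was not tested.

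Leaving out each array gave these ranges, in the order KDM1A TG against C57BL/6, nonTG against C57BL/6, KDM1A TG against nonTG, and the average. They were 0.19 to 0.39, 0.087 to 0.23, 0.089 to 0.21 and 0.11 to 0.30 for snRNP. They were 0.13 to 0.36, 0.44 to 0.65, -0.48 to -0.21 and 0.30 to 0.47 for SR proteins. They were 0.25 to 0.32, 0.16 to 0.28, 0.02 to 0.17 and 0.22 to 0.32 for hnRNP proteins. The lowest SR value in KDM1A TG came without C57BL/6 replicate 3, and the lowest snRNP value of the average without C57BL/6 replicate 1.

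Deviations of same-numbered arrays had correlations from -0.38 to 0.18. Correlations with the 2 nonTG arrays are mirror images of each other, so these values cannot show whether the numbers pair the pools. With the replicate number as a block, 0 splicing genes passed in any comparison, and the class medians were 0.28, 0.18, 0.14 and 0.24 (snRNP), 0.36, 0.50, -0.35 and 0.42 (SR) and 0.30, 0.28, 0.05 and 0.29 (hnRNP).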
